A study of Mus musculus with 12 samples.

Results

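The 10 genes described here encode proteins that fold, check and clear new proteins in the endoplasmic reticulum (ER), together with a central regulator of the unfolded protein response. They were taken by symbol, from a set put together with earlier results of these data known: Hspa5, Hsp90b1, Calr, Dnajb9, Pdia3, Pdia4, Manf, Herpud1, Edem1 and Xbp1. All 10 were found among the 38739 gene symbols of the expression table, and all 10 were among the 11887 genes expressed highly enough to be tested, so no gene of the set is missing from the counts below.

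The data were bulk RNA-seq of bone marrow-derived macrophages (BMDMs), which are macrophages grown in culture from marrow precursors. The 12 samples formed 4 groups of 3. Cells of each genotype were given medium (UT) or lipopolysaccharide of Escherichia coli (LPS), which gave WT UT and WT LPS groups and the same pair in cGAS-/- cells. WT cells came from C57BL/6J mice and cGAS-/- cells from whole-body knockout mice of the same background that lack cGAS, an enzyme that senses DNA in the cytosol and signals through STING, and the study's mice were male and 8 weeks old. The sample labels give LPS at 100 ng/mL for 1 h, whereas the study's methods give a higher dose and a day of exposure, and which of the 2 applies to these libraries cannot be told apart here. In the study the samples within each group are described as technical replicates, 3 per group, so every p-value measures only the spread between these samples and not the spread between mice.

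The unfolded protein response is the cell's answer to a load of unfolded protein in the ER. The chaperone BiP, encoded by Hspa5, holds 3 membrane sensors in check (IRE1, encoded by Ern1, PERK, encoded by Eif2ak3, and ATF6), and when BiP is drawn away to unfolded clients the sensors start programs that make more chaperones, more disulfide isomerases and more of the machinery that extracts misfolded proteins for degradation. IRE1 acts by splicing the Xbp1 mRNA, PERK by slowing translation and inducing ATF4 and CHOP (Ddit3), and ATF6 by moving to the Golgi where it is cut into a transcription factor. Macrophages are secretory cells, and after Toll-like receptor stimulation they are known to use IRE1 and XBP1 in cytokine production.

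The promoters of several of these genes carry the elements through which ATF6 and XBP1 act, and these are shown because they mark which of the 10 genes share a known control sequence. Promoter sequences of RefSeq (build GRCm38.p6, 250 bases before to 50 after the annotated start) were held for 9 of the 10 genes and not for Manf, and each of the 9 matched the GRCm39 genome exactly 1 time. The ER stress response element, searched as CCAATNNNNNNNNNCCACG on both strands, lay in 3 of the 9 promoters, those of Hspa5, Hsp90b1 (2 copies) and Calr, and in 0.119% of 32851 mouse promoters of the same length. Its variant, searched as ATTGGNCCACG, lay only in the Herpud1 promoter among the 9 and in 0.0365% of all promoters. In the windows of 30 bases below, written 5′ to 3′ on the strand of the gene, capitals mark the fixed letters of the element, which read CGTGG and ATTGG where the element lies on the opposite strand. Positions count from the RefSeq start.
Hspa5, chr2:34662032-34662061, plus strand, bases -70 to -41: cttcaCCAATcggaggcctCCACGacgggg
Hsp90b1, chr10:86541496-86541525, minus strand, bases -217 to -188: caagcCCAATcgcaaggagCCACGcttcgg
Hsp90b1, chr10:86541391-86541420, minus strand, bases -112 to -83: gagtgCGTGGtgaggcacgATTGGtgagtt
Calr, chr8:85573698-85573727, minus strand, bases -167 to -138: caacgCGTGGtcgaccctcATTGGcccata
Herpud1, chr8:95112996-95113025, plus strand, bases -61 to -32: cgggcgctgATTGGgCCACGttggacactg

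The coordinates are those of GRCm39. GENCODE places the outermost transcript start 120 bases upstream of the RefSeq start in Hspa5 and 138 bases upstream in Hsp90b1, so the Hspa5 element and the nearer Hsp90b1 element lie inside the annotated genes. Of the other letters searched, the XBP1 element TGACGTGG lay in 0 of the 9 promoters and in 0.676% of all promoters. The amino acid response element TTGCATCA lay only in that of Herpud1 among the 9, and in 0.895% of all promoters. The short ATF6 site CCACG, which is also part of both longer elements, lay in 7 of the 9 and in 32.8% of all promoters. These are matches of letters and no test of binding.

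Levels are in TPM, a share of all transcripts that is corrected for transcript length, and the deposited values appear to be averaged over the transcripts of a symbol. The summed level of the 12 listed macrophage markers (of 17) was 37696 to 38019 TPM in cGAS-/- LPS and 25866 to 31540 TPM in the other 3 groups, and Cgas was 1.19 to 3.25 TPM in the 6 WT samples and 0.0703 to 0.291 TPM in the 6 cGAS-/- samples. WT LPS replicate 3 stood apart: its column summed to 709802 against 447189 to 503156 in the other 11 samples, a ferritin pseudogene (Fth-ps3) took 31.7% of it, and 12261 symbols were above 0, close to the 12787 of WT LPS replicate 1 and below the 15378 to 17573 of the other 10. One step of the labels names neutrophils as the cells extracted, and the summed neutrophil markers (10 of 12 listed) were 159 to 232 TPM in WT UT, 59.7 to 374 in WT LPS, 67.4 to 142 in cGAS-/- UT and 73.2 to 95.4 in cGAS-/- LPS. The WT LPS group was the least uniform, and the estimates for the 10 genes that rest on it are set beside their values without replicate 3 where these differ most. The 10 genes have 9 to 31 annotated transcripts each, so levels are compared between samples and not between genes. Read depth is not known from such values.

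**Figure D1:**
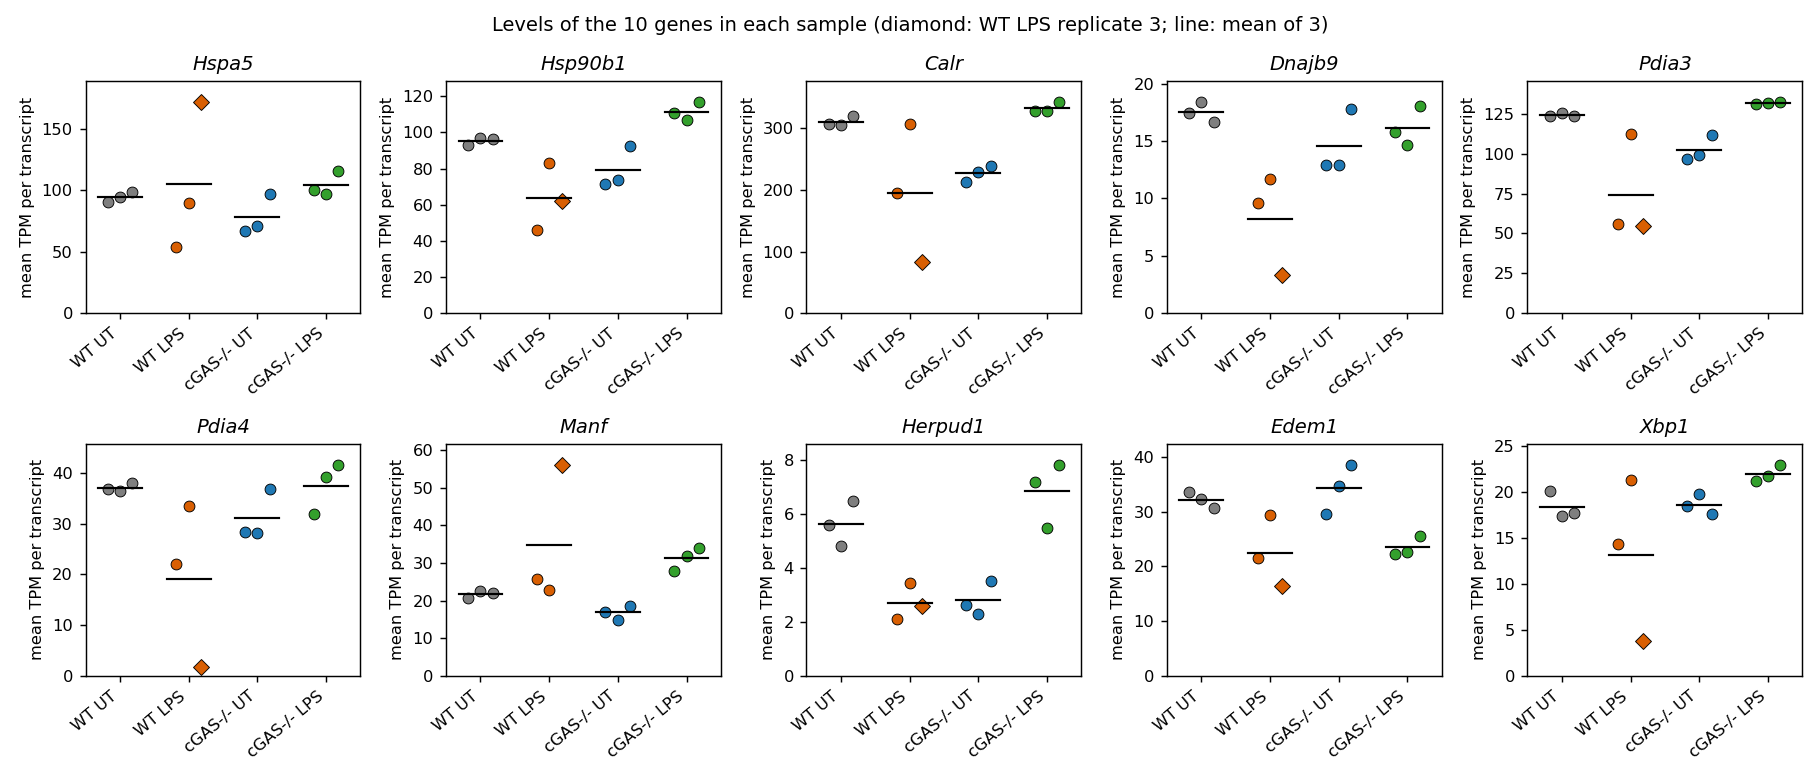
TPM (y axis, starting at 0) of each gene in each of the 12 samples, by group, with the group mean as a line. The cGAS-/- LPS samples sit above the cGAS-/- UT samples without overlap in 7 genes and below them in Edem1. Those groups did not overlap in 55.7% of all 11887 genes. The WT LPS points spread widely, with replicate 3 (diamond) the highest of all 12 samples in Hspa5 and Manf. That sample is the lowest in Pdia4, Xbp1, Dnajb9, Calr, Pdia3 and Edem1. Of all genes, 57.4% were lower in it than in both other WT LPS samples.

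The effect of LPS differed between the genotypes in Herpud1 by the test of the difference, which fell with LPS in WT cells and rose with LPS in cGAS-/- cells. The 5 comparisons were made in 1 limma fit over all 11887 genes, on log2(TPM + 1) with Benjamini-Hochberg adjustment, and a gene was called at an adjusted p under 0.05. In UT cells, 0 of the 10 genes were called between cGAS-/- and WT, where 1.83% of all genes were called, and 1 of the 10 had an unadjusted p under 0.05. With LPS, 1 of the 10 was called, Herpud1, where 2.36% of all genes were called. LPS in WT cells gave 3 of the 10, all lower (Dnajb9, Herpud1 and Pdia3), where 27.6% of all genes were called, and the share of the set was near that background. LPS in cGAS-/- cells gave 1 of the 10, Herpud1, against 13.8% of all genes. The difference between the 2 LPS effects was called in 1 of the 10, again Herpud1, against 0.9% of all genes. No gene of the set passed the study's added threshold of a log2 fold change beyond 2.

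**Figure D2:**
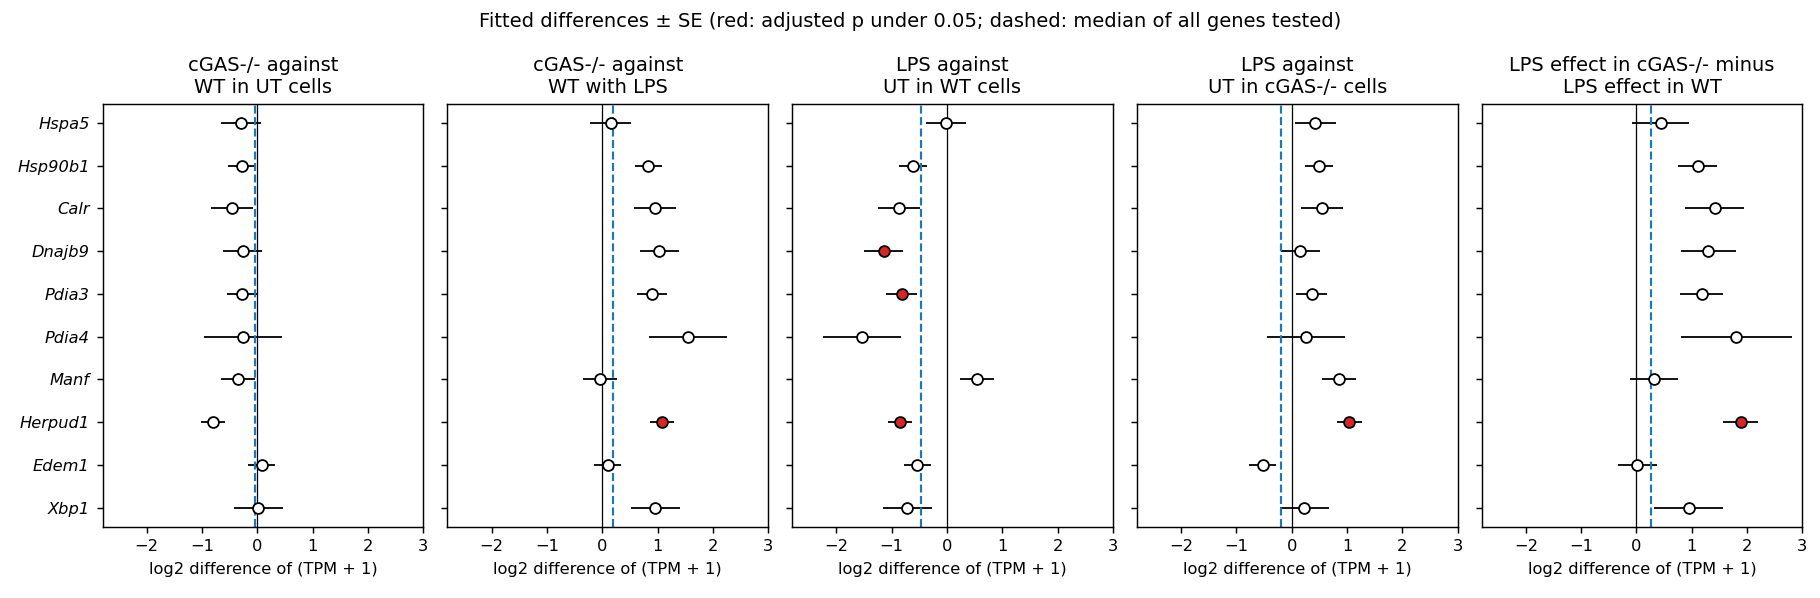
Fitted log2 difference of (TPM + 1) with its SE for each gene (x axis) in the 4 comparisons and in the difference between the LPS effects, with called genes in red and the median of all 11887 genes dashed. Herpud1 is the only gene called in 4 panels. In the right-hand panel all 10 estimates lie above 0, as do 68.2% of all genes, with a median of 1.14 against 0.27 for all genes.

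The medians of the set and of all genes tell how far the whole table moved. The median log2 difference of all genes was -0.04 between genotypes in UT cells, 0.20 between genotypes with LPS, -0.46 for LPS in WT cells and -0.20 for LPS in cGAS-/- cells. That of the 10 genes was -0.28, 0.93, -0.77 and 0.40 in the same order. The set lay on the same side of 0 as all genes in the first 3 comparisons and on the opposite side in the last, where 9 of the 10 estimates and 32.4% of all estimates were above 0. With TMM factors, which rescale each sample by a trimmed mean of its genes, the medians of all genes were -0.11 for LPS in WT cells and 0.0023 for LPS in cGAS-/- cells, and those of the 10 genes were -0.15 and 0.73. Rescaling to a common total of protein-coding genes went the other way for LPS in cGAS-/- cells, with a median of -0.38 for all genes and 0.11 for the 10, of which 6 lay above 0. Without WT LPS replicate 3 the median of all genes was 0.04 between genotypes with LPS and -0.30 for LPS in WT cells, and that of the 10 genes 0.50 and -0.44. In the difference of the LPS effects the medians were then 0.08 for all genes and 0.85 for the 10, of which 9 lay above 0. The genotype and LPS comparisons share groups with each other, so their values are set side by side and are not independent.

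Herpud1 encodes a membrane protein of the ER that joins the degradation complex, and it is among the genes most readily induced by ER stress. It was 5.58, 4.81 and 6.46 TPM in WT UT, and 2.10, 3.43 and 2.58 TPM in WT LPS. It was 2.62, 2.28 and 3.50 TPM in cGAS-/- UT, and 7.19, 5.48 and 7.81 TPM in cGAS-/- LPS. The groups within each genotype did not overlap, and they were ordered oppositely in the 2 genotypes, with the WT LPS and cGAS-/- UT samples sharing the low range. In WT cells Herpud1 fell by 0.85 on the log2 scale with LPS (SE 0.22, adjusted p = 0.0176, limma), or by 0.38 beyond the median of all genes. It rose in cGAS-/- cells by 1.04 (SE 0.22, adjusted p = 0.00901, limma), or by 1.24 beyond the median of all genes. The difference of the 2 effects was 1.89 (SE 0.31, adjusted p = 0.0202, limma). Between the genotypes with LPS it was 1.08 higher in cGAS-/- cells (adjusted p = 0.0313, and 1.07 at 0.0139 without WT LPS replicate 3), and in UT cells the estimate was -0.80 with an adjusted p of 0.138.

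The summed B and plasma cell markers were also lower with LPS in WT cells. The sums were 132 to 159 TPM in UT and 39.1 to 70.1 TPM in LPS. In cGAS-/- cells they overlapped (37.6 to 45.4 and 31.0 to 38.7 TPM), but single markers moved in opposite directions. Ighm was at least 15.6 TPM in cGAS-/- UT and at most 1.26 TPM in cGAS-/- LPS. Sdc1 rose there, from at most 8.63 TPM in UT to at least 23.6 TPM in LPS. In WT cells Ighm also fell, from at least 36.3 TPM in UT to at most 5.69 TPM in LPS. The part of these markers in the Herpud1 values was not tested. The Herpud1 pattern did not rest on WT LPS replicate 3. Without that sample the LPS effect in WT cells was -0.83 (adjusted p = 0.0138, limma), the difference of the effects was 1.87 (adjusted p = 0.00566, limma), and the UT difference between genotypes was also called at the same -0.80 (adjusted p = 0.0391, limma). With TMM factors the fall in WT cells shrank to 0.33 and was no longer called (adjusted p = 0.316, limma), whereas the rise in cGAS-/- cells was 1.31 (adjusted p = 0.0019, limma) and the difference of the effects 1.64 (adjusted p = 0.0323, limma). Without WT UT replicate 1 or 3 the fall in WT cells was not called (adjusted p = 0.0582 and 0.0745, limma), and without cGAS-/- UT replicate 2 or cGAS-/- LPS replicate 3 neither was the rise (adjusted p = 0.0532 and 0.0506, limma). The difference between genotypes with LPS held only without WT LPS replicate 2 or 3, and its call was lost when any other single sample was left out (adjusted p = 0.0511 to 0.165, limma). The rise in cGAS-/- cells was called in 24 of 26 alternative fits, the difference of the effects in 15 of 25, the fall in WT cells in 19 of 26, and the difference between genotypes with LPS in 10 of 26. No fit turned the direction of any of these 4 estimates. When each of the 12 samples was left out in turn, the difference of the effects was 1.77 to 2.02 and passed in 5 of the 12 fits. The call was lost without any 1 of WT UT replicates 1, 2 and 3, cGAS-/- UT replicates 1 and 2, or cGAS-/- LPS replicates 1 and 3 (adjusted p = 0.0597 to 0.0924, limma).

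Hspa5, which encodes BiP, the main HSP70 chaperone of the ER, was steady in WT UT at 90.2, 94.2 and 98.6 TPM. It was 53.5, 89.1 and 171 TPM in WT LPS, on both sides of the WT UT range, and 66.5, 71.0 and 96.6 TPM in cGAS-/- UT. In cGAS-/- LPS it was 100.3, 97.0 and 116 TPM, all above the highest cGAS-/- UT sample by a small margin. No comparison called it, and the LPS effect was -0.01 (SE 0.36) in WT cells and 0.43 (SE 0.36) in cGAS-/- cells. The value in WT cells depended on replicate 3, which alone was 2.40 times the mean of the other 2 samples: without it the estimate was -0.44, and with TMM factors on all samples it was 0.64, neither called.

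Hsp90b1 encodes GRP94, the HSP90 chaperone of the ER that folds Toll-like receptors and integrins. It was 93.0, 96.9 and 96.6 TPM in WT UT and 46.2, 83.0 and 62.3 TPM in WT LPS. In cGAS-/- cells it was 71.3, 73.9 and 92.3 TPM in UT and 111, 107 and 117 TPM in LPS. LPS samples lay below UT samples in WT cells and above them in cGAS-/- cells, with no overlap in either. The estimates were -0.61 (adjusted p = 0.0846) and 0.50 (adjusted p = 0.248), and the difference of the effects was 1.11 (SE 0.35, adjusted p = 0.248), all 3 short of the threshold in limma. Without WT LPS replicate 3 the fall in WT cells was called at -0.62 (adjusted p = 0.045, limma), and with TMM factors the estimate turned to 0.03. The difference of the effects was 1.31 and called without WT LPS replicate 2 (adjusted p = 0.016, limma), and it was also called with sample weights.

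Calr encodes calreticulin, a lectin chaperone that binds glycoproteins and loads MHC class I. It was 306, 306 and 319 TPM in WT UT, 195, 307 and 82.3 TPM in WT LPS, 213, 229 and 239 TPM in cGAS-/- UT, and 327, 329 and 342 TPM in cGAS-/- LPS. The 2 cGAS-/- groups were tight and far apart, the UT group lay below WT UT without overlap, and WT LPS ran from the level of WT UT down to the lowest value of the 12 samples. With the pooled spread of all 12 samples none of this was called, the estimates being -0.45 (SE 0.38) between genotypes in UT cells, -0.86 (SE 0.38) for LPS in WT cells and 0.55 (SE 0.38) for LPS in cGAS-/- cells. Without WT LPS replicate 3 the WT estimate was -0.34 (adjusted p = 0.12, limma), the rise in cGAS-/- cells was called at 0.55 (adjusted p = 0.0147, limma), and the difference of the LPS effects went from 1.41 (adjusted p = 0.347) to 0.89 and was called (adjusted p = 0.0469, limma). In fits of only the 6 samples compared, the UT difference was called (adjusted p = 0.00557, limma), as was the rise with LPS in cGAS-/- cells (adjusted p = 0.000375, limma), while the estimate in WT cells was not (adjusted p = 0.327).

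Dnajb9 encodes ERdj4, a J-domain partner of BiP that is a classical target of XBP1 and restrains IRE1. It was 17.5, 18.4 and 16.6 TPM in WT UT and 9.58, 11.7 and 3.37 TPM in WT LPS, with every LPS sample lower. In cGAS-/- cells the groups overlapped, at 12.9, 13.0 and 17.8 TPM in UT and 15.8, 14.7 and 18.1 TPM in LPS. The fall in WT cells was 1.14 on the log2 scale (SE 0.35, adjusted p = 0.0342, limma), and the estimate in cGAS-/- cells was 0.15 (SE 0.35, adjusted p = 0.857, limma). The difference between these effects, 1.30 (SE 0.50), had an adjusted p of 0.359 in limma, and was 0.83 without WT LPS replicate 3 (adjusted p = 0.0647). With WT LPS replicate 3 left out, the fall was 0.67 and still called (adjusted p = 0.00989, limma), and with TMM factors the estimate was -0.57 and not called (adjusted p = 0.112, limma). The call stood close to the threshold: of the 12 fits that left out 1 sample it passed in 4, those without WT LPS replicate 1, 2 or 3 or cGAS-/- UT replicate 3, and in the other 8 the adjusted p was 0.0507 to 0.0975.

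Pdia3 and Pdia4 encode disulfide isomerases, the former (ERp57) being the partner of calreticulin and calnexin and the latter (ERp72) a partner of BiP. Pdia3 was 124, 125 and 123 TPM in WT UT and 56.0, 112 and 54.5 TPM in WT LPS. It was 96.4, 99.3 and 112 TPM in cGAS-/- UT and 131, 132 and 132 TPM in cGAS-/- LPS. LPS samples again lay below UT samples in WT cells and above them in cGAS-/- cells. The fall in WT cells was 0.82 on the log2 scale (SE 0.28, adjusted p = 0.0484, limma), was 0.64 without replicate 3 (adjusted p = 0.051) and 0.17 with TMM factors (adjusted p = 0.53), so the call was lost under both changes. Of the 12 fits that left out 1 sample it passed only in that without WT LPS replicate 2, and in the other 11 the adjusted p was 0.051 to 0.126. The cGAS-/- estimate of 0.36 was not called (adjusted p = 0.488, limma) in the pooled fit and was called in the fit of those 6 samples alone (adjusted p = 0.00489, limma).

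Pdia4 was 36.8, 36.5 and 38.0 TPM in WT UT, 22.0, 33.4 and 1.84 TPM in WT LPS, 28.3, 28.1 and 36.9 TPM in cGAS-/- UT and 31.8, 39.1 and 41.6 TPM in cGAS-/- LPS. Replicate 3 of WT LPS was 0.0663 times the mean of the other 2 samples, the lowest ratio of any gene of the set. The estimate for LPS in WT cells was the most negative of the 10, -1.54, yet with an SE of 0.70 it was not called (adjusted p = 0.12), and without replicate 3 it was -0.44 (adjusted p = 0.103).

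Manf and Edem1 lay in opposite order under LPS. Manf encodes a small secreted ER protein that binds BiP, and Edem1 a lectin that picks glycoproteins with trimmed mannose for degradation. Manf was 20.7, 22.4 and 22.1 TPM in WT UT, 25.7, 22.8 and 56.0 TPM in WT LPS, 17.1, 14.9 and 18.6 TPM in cGAS-/- UT and 27.8, 31.9 and 34.1 TPM in cGAS-/- LPS. Edem1 was 33.6, 32.3 and 30.6 TPM in WT UT, 21.6, 29.3 and 16.4 TPM in WT LPS, 29.5, 34.7 and 38.6 TPM in cGAS-/- UT and 22.2, 22.7 and 25.5 TPM in cGAS-/- LPS. In both genotypes every LPS sample was above every UT sample for Manf and below every UT sample for Edem1. In the pooled fit the estimates were 0.54 (SE 0.31) and 0.85 (SE 0.31) for Manf and -0.54 (SE 0.24) and -0.52 (SE 0.24) for Edem1, in WT and cGAS-/- cells, and none was called. Once WT LPS replicate 3 was omitted, both cGAS-/- effects were called at the same size (Manf adjusted p = 0.000329, Edem1 adjusted p = 0.0166, limma), whereas the WT estimates were 0.15 and -0.34 and were not called. With TMM factors the Edem1 estimate was -0.20 in cGAS-/- cells and 0.09 in WT cells, so its direction in WT cells depended on the scaling.

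Ratios of 2 genes within a sample do not depend on how samples are scaled, and the pairs were chosen after the values were seen. The ratio of Manf to Edem1 was 0.617, 0.695 and 0.722 in WT UT and 1.19, 0.776 and 3.41 in WT LPS. It was 0.578, 0.428 and 0.483 in cGAS-/- UT and 1.25, 1.40 and 1.33 in cGAS-/- LPS. All 6 LPS samples were above all 6 UT samples. The ratio of Edem1 to Calr was 0.138 to 0.162 in cGAS-/- UT and 0.0679 to 0.0746 in cGAS-/- LPS, and 0.0955 to 0.111 in WT UT and in WT LPS replicates 1 and 2. In WT LPS replicate 3 it was 0.199, the highest of the 12 samples. Hspa5 and Hsp90b1, by contrast, kept a ratio of 0.904 to 1.16 in 11 samples and stood at 2.75 only in WT LPS replicate 3, where the ratio of Hspa5 to Pdia4 was 93.3 against 2.35 to 3.15 in the other 11.

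**Figure D3:**
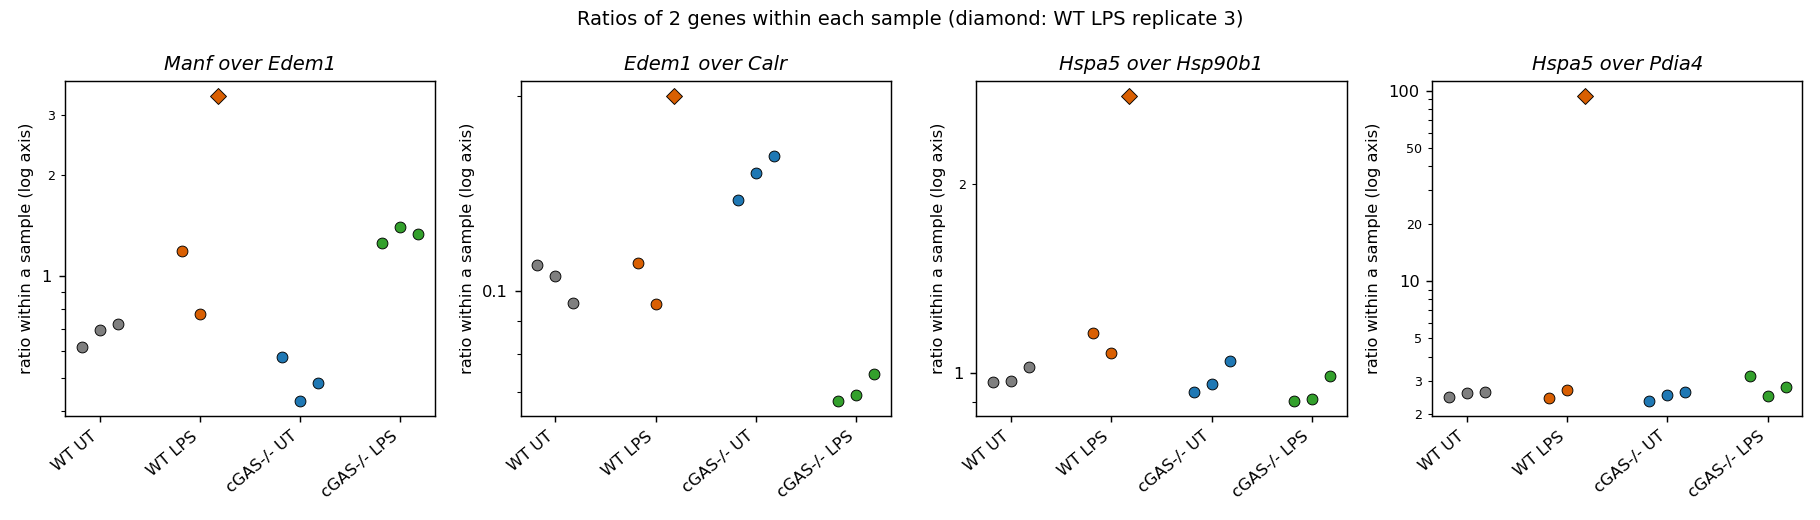
Ratio of 2 genes within each sample (y axis, log scale) for 4 pairs, by group, with WT LPS replicate 3 as a diamond. Manf over Edem1 is 0.776 or more in all 6 LPS samples and 0.722 or less in all 6 UT samples, and the ratios with Hspa5 are flat apart from the diamond.

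Xbp1 encodes the transcription factor made active by IRE1, and a level per gene cannot tell its spliced from its unspliced mRNA. It was 20.1, 17.3 and 17.7 TPM in WT UT, 14.3, 21.3 and 3.81 TPM in WT LPS, 18.4, 19.7 and 17.6 TPM in cGAS-/- UT and 21.1, 21.7 and 22.9 TPM in cGAS-/- LPS. The UT groups overlapped, and every cGAS-/- LPS sample was above every cGAS-/- UT sample. In the pooled fit no comparison called Xbp1, and the estimates with LPS were -0.71 (SE 0.44) in WT cells and 0.23 (SE 0.44) in cGAS-/- cells. The WT estimate was -0.07 without WT LPS replicate 3, and -1.17 and called without WT LPS replicate 2 (adjusted p = 0.0304, limma). Between the genotypes with LPS the Xbp1 difference was 0.96 (adjusted p = 0.272, limma). That difference was 0.31 without WT LPS replicate 3, and 1.42 and called without WT LPS replicate 2 (adjusted p = 0.0241, limma).

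Between the genotypes in UT cells, 5 of the 10 genes had groups that did not overlap (Herpud1, Calr, Pdia3, Manf and Hsp90b1, all lower in cGAS-/-), where 30.5% of all genes did not. With LPS, 5 did not overlap (Herpud1, Calr, Pdia3, Hsp90b1 and Dnajb9, all higher in cGAS-/-), against 17.7% of all genes. LPS and UT did not overlap in 7 genes in WT cells, against 38.2%, and in 8 genes in cGAS-/- cells, against 55.7%. In UT cells the summed level of the B and plasma cell markers (13 of 16 listed, of which 7 were tested) also differed, at 132 to 159 TPM in WT UT and 37.6 to 45.4 TPM in cGAS-/- UT, carried by Igkc and Ighm. The neutrophil sums given above and the dendritic cell marker sums (9.15 to 9.92 TPM in WT UT and 4.82 to 6.63 in cGAS-/- UT) also did not overlap in UT cells and were lower in cGAS-/- UT. With LPS the dendritic cell sums were 2.35 to 2.74 TPM in WT cells and 1.75 to 2.91 TPM in cGAS-/- cells, below UT without overlap in both. Xcr1, on the same list, went the other way, from 0.0267 to 0.173 TPM in WT UT to 0.842 to 2.14 TPM in WT LPS. In cGAS-/- cells Xcr1 was 0 to 0.118 TPM in UT and 0.419 to 0.869 TPM in LPS. Among the B cell markers Pax5 was at most 0.0221 TPM, and 1 of the 13 listed was at 0 throughout both cGAS-/- groups. Antibody-secreting cells have an expanded ER, and the part of these cell types in the UT differences and the LPS effects, and of the higher macrophage marker sum in the cGAS-/- LPS values, was not tested. In bulk samples fewer cells of a type and less RNA per cell cannot be told apart.

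**Figure D4:**
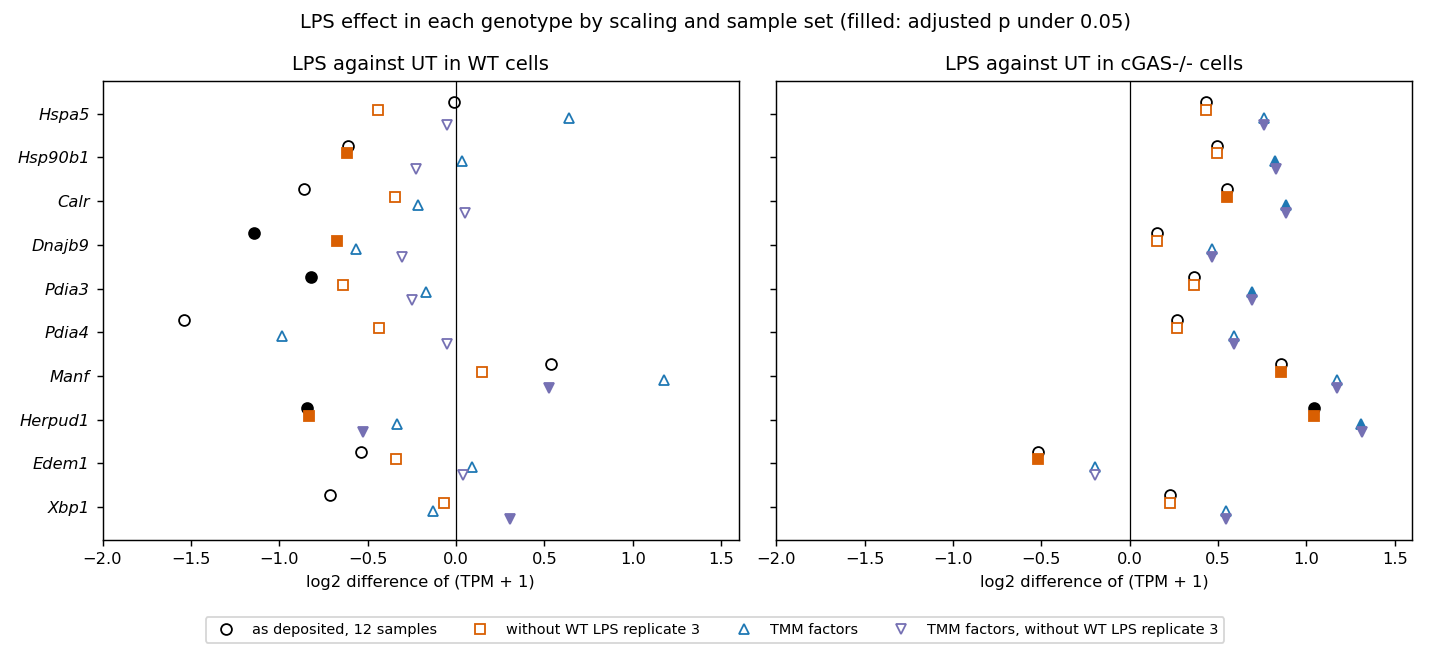
Log2 difference of (TPM + 1) between LPS and UT (x axis) for each gene in WT cells (left) and cGAS-/- cells (right), as deposited, without WT LPS replicate 3, with TMM factors, and with both changes; filled points were called. In cGAS-/- cells the 4 points of a gene lie on the same side of 0, and in WT cells those of Hspa5, Hsp90b1, Calr, Edem1 and Xbp1 lie on both sides.

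How many genes were called for LPS in cGAS-/- cells depended on which samples entered the fit. When only the 6 cGAS-/- samples were fitted, LPS called 7 of the 10 genes, 6 higher (Herpud1, Manf, Calr, Hsp90b1, Pdia3 and Xbp1) and Edem1 lower, where 5305 of all 11887 genes were called. With WT LPS replicate 3 left out, and with all other samples kept, 4 were called (Herpud1, Manf and Calr higher, Edem1 lower), where 3658 of 11742 genes were called. With TMM factors and without that sample, 9 were called, all higher, and only Edem1 was not, where 3530 of 11742 genes were called. Herpud1 rose in each of these fits. In WT cells the number called was 3 without replicate 3 (Herpud1, Dnajb9 and Hsp90b1, with 4135 of all genes), 0 with TMM factors (2317 of all genes), and 9 without replicate 2 (8 lower and Manf higher, with 5770 of all genes). With TMM factors and without replicate 3 it was 3, with Xbp1 and Manf higher and Herpud1 lower, and 3675 of all genes.

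As deposited, the wider pathway was lower more often than higher with LPS, as was the table as a whole. The 7 lists of ER and chaperone genes held 216 symbols, of which 155 were tested. Between the genotypes 0 of the 155 were called in UT cells, against 1.83% of all genes, and 4 with LPS, all higher in cGAS-/- cells, or 2.58% against 2.36% of all genes. LPS called 38 in WT cells (3 higher and 35 lower), or 24.5%, against 27.6% of all genes, and 9 in cGAS-/- cells (1 higher and 8 lower), or 5.81%, against 13.8%. With limma 0 of the 155 were called in the difference of the LPS effects, in which 18 had an unadjusted p under 0.05, beside 1316 of all 11887 genes. The direction depended on the scaling: with TMM factors LPS called 23 in WT cells (11 higher and 12 lower) and 16 in cGAS-/- cells (11 higher and 5 lower). In the fit of the cGAS-/- samples alone LPS called 74 (36 higher and 38 lower), where 5305 of all 11887 genes were called. Leaving out 1 sample moved the count to 13 to 95 in WT cells (without WT UT replicate 3 and WT LPS replicate 2) and to 4 to 37 in cGAS-/- cells (without cGAS-/- UT replicate 1 and WT LPS replicate 3). The same omissions gave 0 to 82 between genotypes with LPS and 0 to 36 in the difference of the effects, both highest without WT LPS replicate 2. Among all genes they gave 1871 to 5770, 1011 to 3658, 68 to 3315 and 38 to 1523 calls, in the same order of comparisons. Of the 18 calls in WT cells named below, 17 held without WT LPS replicate 3 (all but Sec31a) and 9 held with TMM factors, and of the 8 named in cGAS-/- cells 4 held with TMM factors. In the 12 fits that each left out 1 sample, 7 of the 18 passed every time (Fkbp9, Dnajb14, Ero1b, Eif2ak3, Creb3l2, Bag3 and Dnajc1) and 6 passed in 4 fits or fewer (Mesd, Hspa4, Herpud2, Sec24b, Sec31a and Ssr2). Of the 8 in cGAS-/- cells, 3 passed every time (Fkbp9, Dnajb14 and Ahsa1) and 3 passed in 3 fits (Traf2, Dnajb4 and Eif2ak3).

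**Figure D5:**
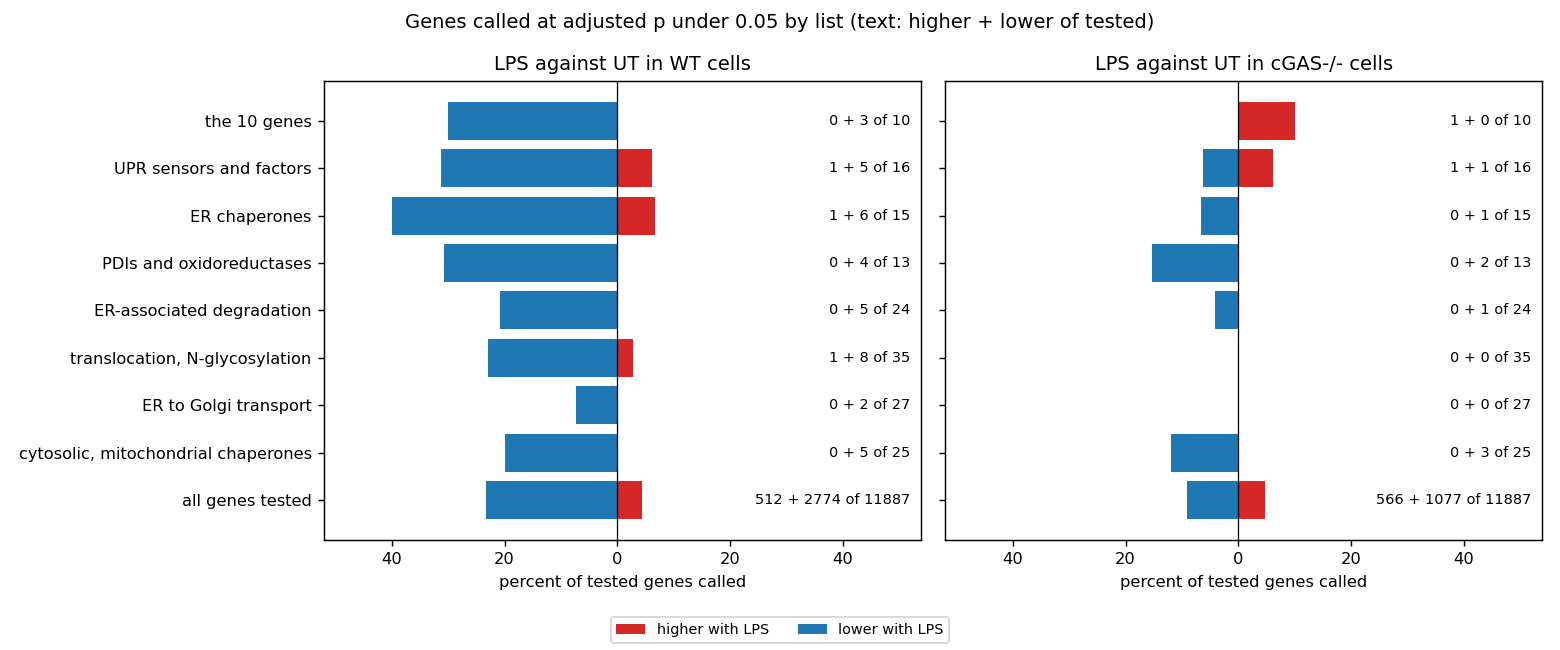
Percent of the tested genes of each list called higher (red, right) and lower (blue, left) with LPS in WT cells and in cGAS-/- cells, with the counts beside each bar and all 11887 genes at the bottom. In WT cells 2 to 8 genes of every pathway list were lower, and in cGAS-/- cells 0 to 3. Of all 11887 genes, 2774 were lower in WT cells and 1077 in cGAS-/- cells.

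Among the sensors, Eif2ak3 (PERK) was lower with LPS in both genotypes. It was 2.24 to 2.62 TPM in WT UT and 0.368 to 0.956 TPM in WT LPS, and it fell by 1.03 (SE 0.20, adjusted p = 0.00334, limma). With cGAS deleted it was 2.65 to 4.04 TPM in UT and 1.39 to 1.68 TPM in LPS and fell by 0.71 (SE 0.20, adjusted p = 0.0344, limma). Atf6 fell with LPS in WT cells by 1.43 (SE 0.41, adjusted p = 0.0254, limma), from 11.6 to 12.8 TPM in UT to 1.25 to 8.74 TPM in LPS, and by 0.86 without WT LPS replicate 3 (adjusted p = 0.00801, limma). The cGAS-/- groups were 17.6 to 18.6 and 7.80 to 8.23 TPM, an estimate of -1.09 that the pooled fit did not call (adjusted p = 0.114, limma) and that was called without WT LPS replicate 3 (adjusted p = 0.00108, limma). Ern1 (IRE1) was called in no comparison, its nearest being LPS in WT cells at -0.82 (adjusted p = 0.0565, limma). That estimate moved with single libraries: it was -1.14 and called without WT LPS replicate 2 (adjusted p = 0.00292, limma), and -0.45 and not called without WT LPS replicate 3 (adjusted p = 0.0658, limma). Ddit3 (CHOP), the death-linked factor downstream of PERK, was 17.4 to 20.9 TPM in WT UT and 12.6 to 51.7 TPM in WT LPS, and 8.92 to 14.1 and 15.1 to 22.3 TPM in the cGAS-/- groups. Its LPS estimates of 0.66 and 0.73 were not called (adjusted p = 0.262 and 0.34, limma). WT LPS replicate 3 held the lowest Ddit3 value of its group, and once it was omitted both were called, at 1.25 (adjusted p = 0.00165, limma) in WT cells and 0.73 (adjusted p = 0.0155, limma) in cGAS-/- cells, and Ddit3 was lower in cGAS-/- than in WT cells with LPS, with a log2 difference of -1.23 (adjusted p = 0.00703, limma). Outside the sensors themselves, Traf2, the adaptor that links IRE1 to JNK, rose with LPS in WT cells by 1.35 (adjusted p = 0.0149, limma, and 0.90 without WT LPS replicate 3) and in cGAS-/- cells by 1.14 (adjusted p = 0.0487, limma), and Creb3l2, an ATF6-like factor, fell in WT cells by 1.10 (adjusted p = 0.00437, limma).

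Of the 15 tested ER chaperones and co-chaperones outside the set, 6 fell and 1 rose with LPS in WT cells, and 1 fell in cGAS-/- cells. These were 46.7% and 6.67% of the list, against 27.6% and 13.8% of all genes. TMM factors gave 2 rises and 4 falls in WT cells and 1 of each in cGAS-/- cells, and the cGAS-/- samples fitted alone gave 4 rises and 5 falls. Fkbp9, a prolyl isomerase of the ER, had the largest fall of any list gene, from 5.78 to 6.30 TPM in WT UT to 0.482 to 1.38 TPM in WT LPS, a log2 difference of -2.01 (SE 0.20, adjusted p = 5.16e-05, limma). It went from 5.73 to 6.24 TPM in cGAS-/- UT to 0.929 to 1.09 TPM in cGAS-/- LPS (log2 difference -1.79, adjusted p = 0.000127, limma), and both calls held in all 26 alternatives. Mesd, a chaperone of LDL receptor family proteins, fell in WT cells by 1.61 (adjusted p = 0.0427, limma), and by 0.84 without WT LPS replicate 3, and Dnajc1, a J-domain protein, rose there by 1.08 (adjusted p = 0.01, limma). Hyou1 and Creld1 were the 2 chaperones called between genotypes with LPS. Hyou1, the large HSP70 that exchanges nucleotide on BiP, was 1.10 to 5.43 TPM in WT LPS and 9.10 to 9.99 TPM in cGAS-/- LPS, a difference of 1.48 (SE 0.33, adjusted p = 0.0421, limma). Creld1 was 0.945 to 2.27 and 3.75 to 3.88 TPM (0.92, SE 0.21, adjusted p = 0.0483, limma). The other list genes called in that comparison were Spcs3, a signal peptidase subunit, at 0.98 (adjusted p = 0.0493, limma) and Map3k5, the kinase ASK1, at 0.96 (adjusted p = 0.0212, limma). With WT LPS replicate 3 left out, the 4 differences were 1.06 (Hyou1), 0.72 (Creld1), 0.87 (Spcs3) and 0.79 (Map3k5), all called. Hyou1, Creld1 and Spcs3 passed in 2 of the 12 fits that left out 1 sample, with an adjusted p of up to 0.165, 0.186 and 0.234, and Map3k5 passed in 9.

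Among 13 oxidoreductases, 4 fell in WT cells and 2 in cGAS-/- cells with LPS, and none rose. Their shares of 30.8% and 15.4% were near the 27.6% and 13.8% of all genes. With TMM factors 2 fell in WT cells, and 1 rose and 1 fell in cGAS-/- cells, where the fit of those samples alone gave 4 rises and 4 falls. Ero1b, which reoxidises the isomerases, fell by 1.88 in WT cells (adjusted p = 0.00174, limma) and by 1.33 in cGAS-/- cells (adjusted p = 0.0177, limma), and Tmx4, a membrane isomerase, by 1.37 (adjusted p = 0.0286, limma, and 0.76 without WT LPS replicate 3) and 1.54 (adjusted p = 0.0264, limma). Of the 24 genes of ER-associated degradation, 5 fell in WT cells and 1 in cGAS-/- cells, where Herpud1 itself rose. The shares called were 20.8% and 4.17%, against 27.6% and 13.8% of all genes. With TMM factors 3 rose and 2 fell in WT cells, and 4 rose and 1 fell in cGAS-/- cells, where the fit of those samples alone gave 3 rises and 7 falls. The gene that fell in cGAS-/- cells in the unscaled fit was Dnajb14, a membrane J-domain protein, which fell by 1.65 (adjusted p = 0.00119, limma) in WT cells and by 1.78 (adjusted p = 0.00094, limma) in cGAS-/- cells. Herpud2, the paralogue of Herpud1, was 21.1 to 22.4 TPM in WT UT and 2.60 to 16.8 TPM in WT LPS and fell by 1.39 (adjusted p = 0.0403, limma), and by 0.75 without WT LPS replicate 3. Herpud2 was 25.9 to 28.6 TPM in cGAS-/- UT and 13.7 to 14.6 TPM in cGAS-/- LPS, the opposite order to Herpud1.

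Translocation and N-glycosylation gave 8 falls and 1 rise among 35 genes in WT cells and 0 calls in cGAS-/- cells with limma, where 0 also had an unadjusted p under 0.05. The WT share was 25.7%, near the 27.6% of all genes, and in cGAS-/- cells 13.8% of all genes were called. With TMM factors the WT count was 1 rise and 0 falls. The absence of calls in cGAS-/- cells depended on the samples fitted: the same list gave 6 rises and 8 falls there in the fit of the cGAS-/- samples alone, and 3 rises and 5 falls without WT LPS replicate 3. Dpagt1, which starts the glycan precursor, fell by 1.18 (adjusted p = 0.031, limma), Alg2, a mannosyltransferase of the same pathway, by 1.15 (adjusted p = 0.0336, limma), and Ssr2, of the translocon-associated complex, rose by 0.81 (adjusted p = 0.0484, limma). Once WT LPS replicate 3 was omitted, these differences were -0.68, -0.69 and 0.50. ER to Golgi transport gave 2 falls among 27 genes in WT cells, Sec24b and Sec31a of the COPII coat, at -1.11 (adjusted p = 0.0345, limma) and -0.95 (adjusted p = 0.0478, limma), and 0 calls in cGAS-/- cells, where 1 had an unadjusted p under 0.05. The share called in WT cells was 7.41%, against 27.6% of all genes. In cGAS-/- cells the list gave 5 rises and 5 falls when those samples were fitted alone, and 2 of each without WT LPS replicate 3. Sec24b was at -0.65 without WT LPS replicate 1 (adjusted p = 0.0486, limma). With WT LPS replicate 3 left out, Sec31a was at -0.58 (adjusted p = 0.066, limma). With TMM factors the list gave the opposite direction in WT cells, with 2 rises and 0 falls. Among 25 cytosolic and mitochondrial chaperones, 5 fell in WT cells and 3 in cGAS-/- cells, against 1 fall, and 3 rises and 2 falls, with TMM factors, and the cGAS-/- samples fitted alone gave 10 rises and 5 falls. As deposited the shares called were 20% and 12%, against 27.6% and 13.8% of all genes. Bag3, an HSP70 co-chaperone of selective autophagy, fell by 1.14 in WT cells (adjusted p = 0.00503, limma), as did Hspa4 by 1.11 (adjusted p = 0.0497, limma), and by 0.62 without WT LPS replicate 3. Ahsa1, the HSP90 activator, fell by 1.28 in cGAS-/- cells (adjusted p = 0.00519, limma), and Dnajb4, a cytosolic J-domain protein, by 1.19 (adjusted p = 0.0421, limma).

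Over 12 samples the median Pearson correlation of log2(TPM + 1) among their 45 pairs was 0.548, with 33 pairs above 0, and without WT LPS replicate 3 it was 0.703, with 41 above 0. These are descriptions over samples that share 4 groups. The correlation of Edem1 with Manf was the lowest of all pairs, at -0.87 over 12 samples and -0.76 over 11. Outside the set, the gene whose log2 level followed the mean standardised profile of the 10 most closely over 12 samples was P4hb, another disulfide isomerase of the ER (r = 0.958), followed by Gpat4 (0.949), Notch2 (0.946), Birc2 (0.943) and Srrt (0.943). Once WT LPS replicate 3 was omitted, the 5 were Birc2 (0.960), Cdk2ap1 (0.945), P4hb (0.938), Srsf3-ps (0.924) and Srrt (0.924), so P4hb, Birc2 and Srrt were in both. Over all 12 samples the value of Srsf3-ps was -0.267.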

How the data were processed

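RNA-seq of 12 macrophage samples, 3 in each of 4 groups mapped from the sample labels, was analysed from 1 expression table. The authors made it with fastp, STAR and kallisto on GRCm39 from stranded paired-end mRNA libraries, and deposited values per gene symbol that were taken as TPM. The unit was read from the values, which are not whole and whose column totals differ, as a mean over the transcripts of a symbol would give. How transcripts were combined is not given in the sources used here. Read depth is unknown, and no count model was used. All 12 columns were mapped by name, leaving 0 unmapped.

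Genes at 1 TPM or more in at least 3 samples, after rescaling each sample to 1e+06, were tested (11887). Values as deposited were taken as log2(TPM + 1) and fitted in limma 3.58.1 (R 4.3.3), with 1 mean for each condition and a variance trend in all 12 samples. Genes were called where the p-value after Benjamini-Hochberg adjustment was below 0.05. The pseudocount of 1 understates fold changes of low genes. The fit was tested on simulated data.

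The 10 genes, the pathway lists and the marker lists were chosen with earlier results of these data known. Genes named are, by rule, the 10; in each list and comparison up to 2 called rises and 2 called falls, the largest whose groups do not overlap; Ern1, Eif2ak3, Atf6 and Ddit3 (Atf4 was not analysed here); the 5 genes most like the set; and Cgas. Alternatives were other pseudocounts, filters, scalings, weights, sample sets, a replicate block and each sample left out. RefSeq promoters were placed on GRCm39 by exact match, and gene models are GENCODE for GRCm39.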

Additional observations from a re-analysis of the deposited data

Results flagged for a closer look

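The difference between the LPS effects in cGAS-/- and WT cells was 1.89 on the log2(TPM + 1) scale for Herpud1 (SE 0.31, adjusted p = 0.0202, limma), with every LPS sample below every UT sample in WT cells and above every UT sample in cGAS-/- cells. It stands here because the test of the difference itself passed the threshold in 1 of the 10 genes, where 0.9% of all 11887 genes passed. The estimate was 1.06 to 2.31 over 25 alternatives and passed in 15 of them. Single outlying samples were not tested in groups of 3.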

How the results depend on the processing

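Of 1290 values of the 10 genes under alternatives, 1086 kept direction and side of the threshold, 92 passed it newly, 67 no longer passed and 45 turned direction, the last all in values that were not called as reported. Among these 45, Xbp1 for LPS in WT cells was called in the turned direction with TMM factors and without WT LPS replicate 3 (0.31, adjusted p = 0.0365, limma). The cause was not tested. For members called, cGAS-/- against WT in UT cells gave 0 as reported, 3 with only the samples compared, 4 with sample weights, 2 with TMM factors and without WT LPS replicate 3, and 4 with only WT LPS replicate 2 of the WT LPS samples. The genotypes with LPS gave 1 as reported, 0 with a log2 fold change beyond 2, a pseudocount of 0.1, rescaled protein-coding totals, only the samples compared or the replicate block, and 6 with TMM factors and without WT LPS replicate 3. LPS in WT cells gave 3 as reported, 0 beyond a log2 fold change of 2, with TMM factors or only the samples compared, 1 with no filter, the replicate block or only WT LPS replicate 2, 5 with protein-coding totals, and 3 (2 higher, 1 lower) with TMM factors and without WT LPS replicate 3. LPS in cGAS-/- cells gave 1 as reported, 0 beyond 2, 4 with TMM factors, 2 with protein-coding totals, 7 with only the samples compared or weights, 9 with TMM factors and without WT LPS replicate 3, and 8 with only WT LPS replicate 2. The difference of the LPS effects gave 1 as reported, 0 beyond 2, with a pseudocount of 0.1, protein-coding totals or the replicate block, 4 with weights, 6 with TMM factors and without WT LPS replicate 3, and 5 with only WT LPS replicate 2. Leaving out each sample gave 0 to 1, 0 to 7, 0 to 9, 0 to 4 and 0 to 5 in that order, the highest without WT LPS replicate 3 for the UT genotypes and for LPS in cGAS-/- cells, and without WT LPS replicate 2 in the others.

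The replicate numbers share only a number: among 18 same-numbered pairs correlations of deviations from group means were -0.031 to 0.038, and in 6 of the 18 pairs the same number gave the best match. With the replicate block the Herpud1 difference of effects was 1.89 at an adjusted p of 0.0501 (limma), the pathway genes called between genotypes with LPS went from 4 to 0, and all genes called were 170, 179, 2955, 1414 and 54, against 218, 281, 3286, 1643 and 107.

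All genes called were 1241, 5, 716 and 5305 with only the samples compared, 1369 (UT genotype), 5746 (LPS in cGAS-/- cells) and 292 (difference) with weights, 508 between genotypes with LPS with TMM factors, and 646, 971, 4135, 3658 and 536 without WT LPS replicate 3. Protein-coding totals gave 260, 278, 4737, 2624 and 129, TMM factors without WT LPS replicate 3 gave 740, 1716, 3675, 3530 and 801 of 11742 genes, and only WT LPS replicate 2 gave 1657, 1795, 3801, 5312 and 1355 of 11593. A pseudocount of 0.1 gave 163 between genotypes with LPS and 32 for the difference, and no filter 2668 for LPS in WT cells. Without WT LPS replicate 2 they were 3315 between genotypes with LPS, 5770 for LPS in WT cells and 1523 for the difference. Leaving out each sample gave 87 to 646, 68 to 3315, 1871 to 5770, 1011 to 3658 and 38 to 1523. The higher and lower split for LPS went with TMM factors to 883 higher and 1434 lower in WT cells, from 512 and 2774, and to 828 and 783 in cGAS-/- cells, from 566 and 1077.

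Estimates that turned direction, on the log2 scale, none of them called as reported, were these. Between genotypes in UT cells Xbp1 was -0.056 with a common total, and Ern1 0.017 with TMM factors with or without WT LPS replicate 3 and 0.030 with quantile normalization. Leaving out samples gave Xbp1 -0.024 to 0.080, Edem1 -0.0064 to 0.18 and Ern1 -0.087 to 0.013. With LPS Hspa5 was -0.096 with TMM factors and -0.059 with protein-coding totals, and -0.25 to 0.58 leaving out samples. Manf was 0.089 with a common total, 0.24 with weights, 0.36 with TMM factors and without WT LPS replicate 3, 0.44 with only WT LPS replicate 2, and -0.28 to 0.35 leaving out samples. Edem1 was -0.14 with TMM factors, -0.095 with quantile normalization, -0.10 with protein-coding totals, -0.089 with TMM factors and without WT LPS replicate 3, -0.31 with only WT LPS replicate 2, and -0.097 to 0.30 leaving out samples, and Atf6 was -0.12 with only WT LPS replicate 2. For LPS in WT cells Hspa5 was 0.64 with TMM factors, 0.073 with quantile normalization and -0.44 to 0.39 leaving out samples, and Hsp90b1 was 0.032 with TMM factors. Xbp1 was 0.31 with TMM factors and without WT LPS replicate 3 and 0.20 with only WT LPS replicate 2, Calr 0.053 with the former, and Edem1 0.091 with TMM factors and 0.042 with the former. For LPS in cGAS-/- cells, protein-coding totals gave Xbp1 -0.052, Dnajb9 -0.12 and Pdia4 -0.019, and Ern1 was 0.14 with TMM factors with or without WT LPS replicate 3 and 0.12 with quantile normalization. In the difference of the LPS effects Manf was -0.0023 with TMM factors. Edem1 was -0.29 with TMM factors, -0.27 with quantile normalization, -0.23 with protein-coding totals, -0.053 with weights, -0.24 with TMM factors and without WT LPS replicate 3, -0.39 with only WT LPS replicate 2, and -0.18 to 0.22 leaving out samples. Atf6 was -0.025 with quantile normalization, -0.27 with TMM factors and without WT LPS replicate 3, -0.64 with only WT LPS replicate 2 (adjusted p = 0.00481, limma), and -0.23 to 0.83 leaving out samples. Ddit3 was -0.012 with a pseudocount of 5, -0.24 with TMM factors, -0.10 with quantile normalization, -0.16 with protein-coding totals, -0.42 with weights, -0.59 with TMM factors and without WT LPS replicate 3, -0.34 with only WT LPS replicate 2, and -0.52 to 0.46 leaving out samples.

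The fits with TMM factors and without WT LPS replicate 3, and with only WT LPS replicate 2, were chosen after seeing the data.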
